A study of Mus musculus with 6 samples.

Results

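Glycolysis and hypoxia response genes were examined in tumour-associated macrophages. They are a list of 33 mouse genes, 20 of glycolysis and 13 of the response to low oxygen, matched by symbol. All 33 were found among the 15487 genes of the deposited table. The macrophages were sorted by flow cytometry on day 15 from tumours of implanted CT26 cells, a mouse colon carcinoma line. In the Sg-C3 group (3 libraries) the implanted cells are labelled Sg-C3, taken here to mean a guide RNA against the complement gene C3. In the Sg-Con group (3 libraries) they are labelled Sg-Con, taken to mean a control guide RNA. All 6 samples are from the BALB/C strain and labelled wild type, so by the labels the edited cells are the implanted ones. Not given are the sort markers, the age of the mice, the implantation site and whether a cell line was 1 clone. Nothing says that the libraries stem from different mice, and p-values then cover only how these libraries vary, which may be technical variation. The comparison addresses how macrophages differ between tumours with and without the C3 guide.

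Glycolysis splits glucose into pyruvate in the cytosol. Hexokinase and phosphofructokinase commit the sugar, the enzymes from aldolase to pyruvate kinase harvest ATP, and lactate dehydrogenase turns pyruvate into lactate. When oxygen is short, prolyl hydroxylases of the Egln family stop marking the transcription factor HIF-1α for destruction, and HIF-1 then raises most glycolytic genes, the kinase gene Pdk1 and a set of stress genes. Inflammatory macrophages are known for fast glycolysis, and HIF-1α can be stabilised in them without low oxygen.

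The values are FPKM, fragments per kilobase of transcript scaled to the mapped fragments of the library, which allow genes to be compared within a library. In each library they summed to between 474579 and 487358, and the size of 1 read in short non-coding genes gave an estimated depth of 17.6 to 19 megareads in Sg-C3 libraries and 18.5 to 19.3 megareads in Sg-Con libraries. The test was limma on log2(FPKM + 1), over the 11198 genes that reached 1 FPKM in 3 or more libraries. A gene is called higher or lower in Sg-C3 where its Benjamini-Hochberg adjusted p is below 0.05. For genes of low FPKM this log scale gives less than the true change. Means carry the SD over 3 libraries, and folds and ratios are of mean FPKM, Sg-C3 over Sg-Con. Across the tested genes the median log2 fold change was -0.16 (-0.02 after median-ratio scaling). Sg-Con replicate 2 stood above the other Sg-Con libraries for most of the 33 genes, as given with the spread. In bulk RNA, fewer cells of a type and less RNA per cell cannot be told apart.

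Glycolysis genes were called in both directions, more of them lower, as were 71.5% of the calls over all tested genes. Of the 20 genes, 4 were higher in Sg-C3 (Hk2, Hk3, Pfkp and Aldoc), 11 were lower (Gpi1, Pfkl, Pfkm, Aldoa, Tpi1, Gapdh, Pgk1, Pgam1, Eno1, Ldha and Pdk1) and 5 were not called (Hk1, Pkm, Ldhb, Pfkfb3 and Pfkfb4). Of all tested genes 44.4% were called, 12.7% higher and 31.7% lower. Of the 13 hypoxia genes, 2 were higher (Ddit4 and Ndrg1), 6 were lower (Egln1, Bnip3, Bnip3l, Adm, P4ha1 and Ankrd37) and 5 were not called (Hif1a, Egln3, Ero1l, Mxi1 and Higd1a). The median log2 fold change was -0.33 over the glycolysis genes and -0.11 over the hypoxia genes, beside -0.16 over all tested genes. The values of the groups did not overlap for 17 of the 20 glycolysis genes and 8 of the 13 hypoxia genes, beside 57.6% of all tested genes. After median-ratio scaling 8 glycolysis genes and 4 hypoxia genes were lower, beside 2134 of the 11198 tested genes. All 33 genes passed the filter on low values, but Adm passed it through its Sg-Con values alone. The summed FPKM of the 20 glycolysis genes was 4755 ± 133 FPKM in Sg-C3 and 6047 ± 386 FPKM in Sg-Con, a ratio of 0.786. The largest parts of this sum were Gapdh and Pkm, with means of 1735 and 801 FPKM in Sg-C3 and 2143.5 and 997 FPKM in Sg-Con.

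**Figure D1:**
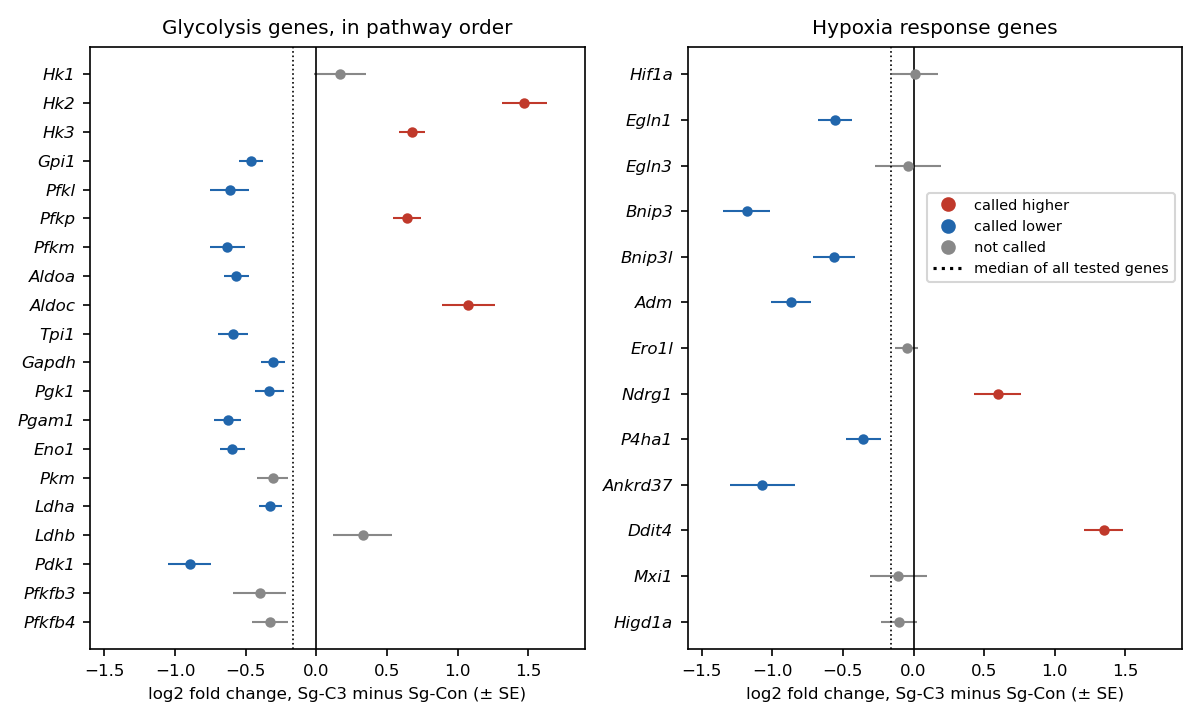
Log2 fold change of each of the 33 genes, Sg-C3 minus Sg-Con, with limma's SE as the bar; points are coloured by the call and the dotted line is the median of all tested genes. Hk2 (1.47) and Ddit4 (1.34) lie farthest to the right, and Bnip3 (-1.18) and Ankrd37 (-1.07) farthest to the left.

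Markers of other cells moved with the groups beside these results. Macrophage markers were abundant in all libraries, with a sum over 12 genes between 14163 and 17732 FPKM in Sg-C3 libraries and between 20019 and 22586 FPKM in Sg-Con libraries, and in a test with no filter 4 were lower and none higher. In that test 32.1% of all genes were called. Of 12 markers of tumour epithelium 3 were lower, with a sum between 6.58 and 12.2 FPKM in Sg-C3 libraries and between 35.4 and 67.1 FPKM in Sg-Con libraries. Krt8, an epithelial keratin gene, had 0.35, 0.26 and 0.36 FPKM in Sg-C3 libraries, against 8.92, 21.9 and 12.2 FPKM in Sg-Con libraries, with its highest value in Sg-Con replicate 2. Cldn3 and Cldn4 stayed under 1 FPKM in all libraries, and no marker of the list was at 0 in every library. Of 12 T and NK cell markers 10 were higher and none lower, with a sum between 49.2 and 57.9 FPKM in Sg-C3 libraries and between 3.26 and 8.49 FPKM in Sg-Con libraries. Of 11 neutrophil markers 4 were higher and none lower (between 395 and 1348 FPKM in Sg-C3 libraries and between 163 and 233 FPKM in Sg-Con libraries), and of 11 dendritic cell markers 4 were higher and none lower (between 46.6 and 71.2 FPKM in Sg-C3 libraries and between 14.9 and 20.6 FPKM in Sg-Con libraries). S100a8 and S100a9 made up most of the neutrophil sum in each Sg-C3 library. Mmp8 and Mmp9 of that list had negative log2 fold changes (-1.04 and -0.60) and were not called. Of the dendritic cell markers, Flt3, Siglech, Itgae, Cd209a and Zbtb46 stayed under 1 FPKM in all libraries. Of 12 fibroblast and endothelial markers 5 were higher and 3 lower (between 220.1 and 265 FPKM in Sg-C3 libraries and between 83.4 and 101 FPKM in Sg-Con libraries). Most of the difference in that sum came from Dcn and Pecam1. Their means were 113.6 and 61.25 FPKM in Sg-C3, against 21.9 and 8.99 FPKM in Sg-Con. Col1a2, Thy1 and Cdh5 had negative log2 fold changes (-0.59, -1.38 and -0.71). Of 6 erythrocyte and platelet markers 1 was lower (between 174 and 589 FPKM in Sg-C3 libraries and between 393 and 921 FPKM in Sg-Con libraries), and none of 6 B cell markers was called. Of 15 cell cycle genes 11 were lower and none higher. Mki67 and Pcna of that list had positive log2 fold changes (0.46 and 0.09) and were not called. With 1 library left out, an alternative added after seeing the data, the neutrophil markers called higher numbered 1 without Sg-C3 library 1 and 2 without Sg-C3 library 2 or Sg-Con library 1 or 2, and the dendritic cell markers called higher 2 without Sg-C3 library 1 or 2. 1 neutrophil marker was lower without Sg-C3 library 1. The fibroblast and endothelial markers called lower numbered 1 without Sg-C3 library 1 or 3 or Sg-Con library 2 or 3, and the cell cycle genes called lower 6 without Sg-C3 library 1 and 7 without Sg-C3 library 2. Without Sg-C3 library 3, 1 erythrocyte and platelet marker was higher. T and NK cell markers called higher numbered 9 to 10. The part of these cells in the differences of glycolysis and hypoxia genes was not tested.

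Hexokinase, which phosphorylates glucose and so traps it in the cell, had more RNA in Sg-C3. Hk2, the inducible form that binds mitochondria, had 90.4, 107 and 74.5 FPKM in Sg-C3 libraries, against 30.9, 27.6 and 37.2 FPKM in Sg-Con libraries. The groups did not overlap, and the means were 90.8 ± 16.5 FPKM in Sg-C3 and 31.9 ± 4.87 FPKM in Sg-Con (log2 fold change 1.47, SE 0.16, limma adjusted p = 0.00184), a 2.84-fold difference. Hk3, a form found in myeloid cells, had 76.6, 87.2 and 76.8 FPKM in Sg-C3 libraries, against 49.6, 52.8 and 46.6 FPKM in Sg-Con libraries (log2 fold change 0.68, SE 0.09, limma adjusted p = 0.00294), and again every Sg-C3 library lay above every Sg-Con library. Hk1, the widely expressed form, had 33.9, 37.5 and 23 FPKM in Sg-C3 libraries, against 24.4, 30.1 and 27.9 FPKM in Sg-Con libraries, and the groups overlapped (log2 fold change 0.17, SE 0.18, limma adjusted p = 0.478). It was called higher only when Sg-C3 library 3 was removed (limma adjusted p = 0.0454). Summed over the 3 genes, hexokinase RNA was 202 ± 29 FPKM in Sg-C3 and 109 ± 3.62 FPKM in Sg-Con, 1.86-fold. Within that sum the share of Hk2 was 45, 46.3 and 42.7% in Sg-C3 libraries, against 29.5, 25 and 33.3% in Sg-Con libraries, without overlap, and the share of Hk1 was 15.4% ± 1.95 in Sg-C3 and 25.1% ± 2.02 in Sg-Con. Hk3 held 39.9% ± 3.6 in Sg-C3 and 45.6% ± 3.35 in Sg-Con, with overlap.

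HIF-1 binds the core letters ACGTG or GCGTG, and the promoters of the 33 genes were searched for these letters on both strands. RefSeq promoters of GRCm38.p6 matched 31 of the 33 genes, all but Bnip3l and Ndrg1. In the 250 bases before a start site, a core on either strand was present in 29 of 31 genes, counting every listed start of a gene, beside 61.7% of the 8856 tested genes with a promoter in that table. Over all 32851 listed start sites the share was 38.6%. Of the listed genes, all 5 matched genes called higher, 14 of the 16 matched genes called lower and all 10 not called held a core. Hk2, the gene with the highest fold change, and Ldha, which fell, are shown to set a promoter of each direction side by side. They are printed 5′ to 3′ over the 250 bases before the first start listed, with each core in capitals on the strand printed. CACGT and CACGC are the cores read from the other strand, and CACGTG holds ACGTG on both strands.
Hk2, chr6:82774455-82774704, minus strand: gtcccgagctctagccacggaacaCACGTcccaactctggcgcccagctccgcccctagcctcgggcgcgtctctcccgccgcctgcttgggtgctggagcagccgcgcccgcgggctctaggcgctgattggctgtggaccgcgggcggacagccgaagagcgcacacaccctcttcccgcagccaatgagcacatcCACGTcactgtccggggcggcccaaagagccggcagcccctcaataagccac
Ldha, chr7:46845554-46845803, plus strand: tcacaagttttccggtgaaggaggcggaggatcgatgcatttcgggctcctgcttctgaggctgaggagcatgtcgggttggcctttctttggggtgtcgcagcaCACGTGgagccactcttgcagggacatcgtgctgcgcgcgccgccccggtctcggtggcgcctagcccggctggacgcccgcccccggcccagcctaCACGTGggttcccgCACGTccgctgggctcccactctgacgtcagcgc
The Hk2 stretch holds 2 matches, starting 226 and 52 bases before the start site, and the Ldha stretch holds 5, of which 4 are the paired readings of its 2 CACGTG runs. Another listed start of Ldha, not shown, holds 1 match. A match is a description of the letters and no evidence of binding.

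Phosphofructokinase, the main control point of the pathway, had a similar total and differed in makeup. The summed FPKM of the 3 genes was 75.7 ± 2.93 FPKM in Sg-C3 and 74.3 ± 2.34 FPKM in Sg-Con. Pfkp, the platelet form, had 46.8, 51.4 and 44.3 FPKM in Sg-C3 libraries, against 29.6, 28.1 and 32.7 FPKM in Sg-Con libraries, and Pfkl, the liver form, had 23.3, 22.8 and 30.5 FPKM in Sg-C3 libraries, against 38.5, 43.8 and 35.9 FPKM in Sg-Con libraries. Pfkp was higher (log2 fold change 0.64, SE 0.10, limma adjusted p = 0.00394) and Pfkl was lower (log2 fold change -0.61, SE 0.14, limma adjusted p = 0.0118), and neither overlapped between the groups. Pfkm, the muscle form and the lowest of the 3, had 2.42, 2.52 and 3.26 FPKM in Sg-C3 libraries, against 4.56, 5.02 and 4.67 FPKM in Sg-Con libraries (log2 fold change -0.63, SE 0.12, limma adjusted p = 0.00739). The share of Pfkp in the step was 64.5, 67 and 56.8% in Sg-C3 libraries, against 40.8, 36.5 and 44.6% in Sg-Con libraries, and that of Pfkl was 32.1, 29.7 and 39.1% in Sg-C3 libraries, against 52.9, 57 and 49% in Sg-Con libraries. In every Sg-C3 library Pfkp was thus the more abundant of the pair per length, and in every Sg-Con library Pfkl was.

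The bifunctional enzymes Pfkfb3 and Pfkfb4, which set the level of the activator of phosphofructokinase, were not called. Pfkfb3 had 37.1, 34.8 and 34 FPKM in Sg-C3 libraries, against 55.6, 55.1 and 33.7 FPKM in Sg-Con libraries, where Sg-Con replicate 3 lay below the other Sg-Con libraries and level with Sg-C3 (log2 fold change -0.40, SE 0.19, limma adjusted p = 0.121). It was called lower when Sg-Con library 3 was removed (limma adjusted p = 0.00823). Pfkfb4 had 7.82, 6.9 and 9.21 FPKM in Sg-C3 libraries, against 11, 9.27 and 10.4 FPKM in Sg-Con libraries, without overlap (log2 fold change -0.33, SE 0.13, limma adjusted p = 0.069), and was called lower when Sg-C3 library 3 was removed (limma adjusted p = 0.0293). Gpi1, the isomerase between hexokinase and phosphofructokinase, fell to 171 ± 3.15 FPKM in Sg-C3, against 236 ± 16 FPKM in Sg-Con (log2 fold change -0.46, SE 0.08, limma adjusted p = 0.00616). GENCODE annotates a transcript on the opposite strand over 11.5% of the exon bases of Gpi1, and another on the same strand over 10.2% of those of Pfkm, and nothing given says that reads were assigned by strand.

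**Figure D2:**
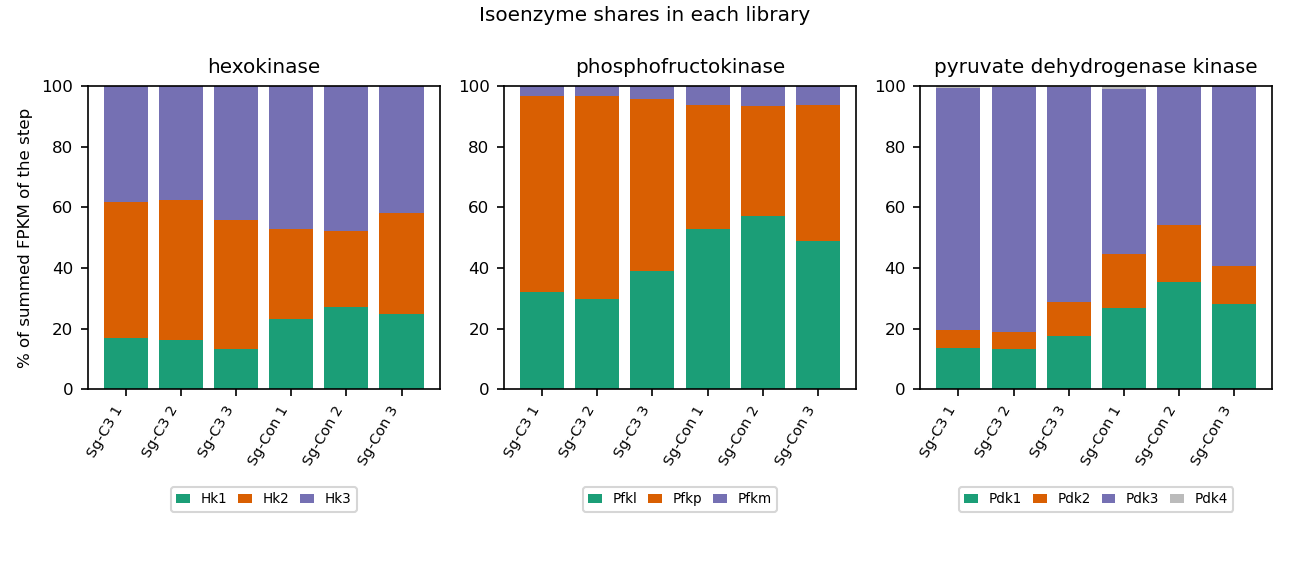
Share of each isoenzyme gene in the summed FPKM of its step, as stacked bars for each library, for hexokinase, phosphofructokinase and pyruvate dehydrogenase kinase. Pfkp takes 62.8% of the phosphofructokinase bars in Sg-C3 on average, against 40.6% in Sg-Con.

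From aldolase to enolase the abundant genes were lower in Sg-C3. Aldoa, the main aldolase gene, had 425, 423 and 427 FPKM in Sg-C3 libraries, against 597, 686 and 609 FPKM in Sg-Con libraries, so that the Sg-C3 libraries lay within a few FPKM of each other and below all Sg-Con libraries (log2 fold change -0.57, SE 0.09, limma adjusted p = 0.00394). Aldoc, a minor aldolase gene best known from brain, went the other way with 5.87, 10.2 and 7.39 FPKM in Sg-C3 libraries, against 2.69, 3.33 and 3.29 FPKM in Sg-Con libraries (log2 fold change 1.08, SE 0.18, limma adjusted p = 0.00532), a 2.52-fold difference without overlap. The share of Aldoc in the aldolase sum was 1.8% ± 0.502 in Sg-C3 and 0.49% ± 0.0451 in Sg-Con. Tpi1, which interconverts the triose phosphates, and Pgam1, which shifts the phosphate of phosphoglycerate, fell to 0.662 and 0.645 of their Sg-Con means (log2 fold changes -0.59 and -0.63, limma adjusted p = 0.00606 and 0.00369). Pgam1 had 194, 206 and 199 FPKM in Sg-C3 libraries, against 280.2, 338 and 312 FPKM in Sg-Con libraries. None of these genes overlapped between the groups.

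Gapdh and Pgk1, the enzymes around the first ATP-forming step, differed less. Gapdh, the most abundant gene of the list and a common normalisation gene, had 1833, 1686 and 1685 FPKM in Sg-C3 libraries, against 2064, 2205 and 2162 FPKM in Sg-Con libraries, without overlap (log2 fold change -0.31, SE 0.09, limma adjusted p = 0.0266). It was not called when Sg-C3 library 2 or 3 or Sg-Con library 2 or 3 was removed (limma adjusted p = 0.0644 to 0.1). Nor was it with no filter (0.0536), after median-ratio scaling (0.219) or with title style as a covariate (0.062). Pgk1 was 315 ± 18.9 FPKM in Sg-C3 and 398 ± 38.1 FPKM in Sg-Con (log2 fold change -0.33, SE 0.10, limma adjusted p = 0.0333). It was not called when Sg-C3 library 1, 2 or 3 or Sg-Con library 2 or 3 was removed (limma adjusted p = 0.0599 to 0.0983), nor after median-ratio scaling (0.264), after quantile normalization (0.0512) or with title style as a covariate (0.0643). Relative to the median of all tested genes their log2 fold changes were -0.14 and -0.17.

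Eno1, which codes for the enolase of most tissues, had 228, 218 and 225 FPKM in Sg-C3 libraries, against 314, 364 and 336 FPKM in Sg-Con libraries, without overlap (log2 fold change -0.59, SE 0.09, limma adjusted p = 0.00341). The table also lists Eno1b, a retrotransposed copy of Eno1, at 228, 216 and 216 FPKM in Sg-C3 libraries and 317, 336 and 346 FPKM in Sg-Con libraries. In each library these values are close to those of Eno1, and reads that match both genes cannot be told apart, so the level of Eno1 is uncertain. Summed, the pair had a log2 fold change of -0.60 (SE 0.08, limma adjusted p = 0.00298), an alternative chosen after seeing the data.

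At the end of the pathway the differences were small. Pkm, the pyruvate kinase gene of macrophages, had 828, 836 and 741 FPKM in Sg-C3 libraries, against 886, 1109.9 and 994 FPKM in Sg-Con libraries, and it was not called although the groups did not overlap (log2 fold change -0.31, SE 0.11, limma adjusted p = 0.0553). It was called lower when Sg-Con library 1 was removed (limma adjusted p = 0.0391) and after quantile normalization (0.0444). GENCODE annotates another transcript on the same strand over 15.3% of its exon bases. Ldha, the lactate-forming subunit, had 352, 324 and 332 FPKM in Sg-C3 libraries, against 399, 435 and 429.7 FPKM in Sg-Con libraries (log2 fold change -0.33, SE 0.08, limma adjusted p = 0.0181). The groups did not overlap, but the call was lost when Sg-C3 library 2 or Sg-Con library 2 or 3 was removed (limma adjusted p = 0.0524 to 0.072) and after median-ratio scaling (0.153). Ldhb, the subunit that favours pyruvate, had 5.08, 9.21 and 8.42 FPKM in Sg-C3 libraries, against 5.59, 6.57 and 4.93 FPKM in Sg-Con libraries, with overlap (log2 fold change 0.33, SE 0.21, limma adjusted p = 0.228), and was called higher when Sg-C3 library 1 was removed (limma adjusted p = 0.0344). Its share of the lactate dehydrogenase sum was 2.22% ± 0.708 in Sg-C3 and 1.33% ± 0.181 in Sg-Con, also with overlap.

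Pdk1, a kinase that switches off pyruvate dehydrogenase and so blocks the conversion of pyruvate to acetyl-CoA, was the lowest of the glycolysis genes by fold. It had 2.38, 2.59 and 3.41 FPKM in Sg-C3 libraries, against 5.42, 7.25 and 5.5 FPKM in Sg-Con libraries, without overlap (log2 fold change -0.90, SE 0.15, limma adjusted p = 0.0053), a ratio of 0.461. Among the genes of the same family, Pdk2 was lower as well, with 1.03, 1.06 and 2.19 FPKM in Sg-C3 libraries, against 3.54, 3.88 and 2.47 FPKM in Sg-Con libraries (log2 fold change -0.84, SE 0.22, limma adjusted p = 0.0187), and Pdk3 was higher, with 13.9, 15.8 and 13.9 FPKM in Sg-C3 libraries, against 11, 9.37 and 11.6 FPKM in Sg-Con libraries (log2 fold change 0.42, SE 0.11, limma adjusted p = 0.0215). Pdk2 lost its call when Sg-C3 library 1 or 2 or Sg-Con library 1 or 2 was removed (limma adjusted p = 0.0512 to 0.0691) and Pdk3 when Sg-C3 library 2 or Sg-Con library 2 was removed (limma adjusted p = 0.0652 to 0.0799). Pdk4 was under the filter, at 0.03 to 0.19 FPKM over the 6 libraries. Pdk3 was the most abundant of the 4 in every library. Its share of their sum was 77.3% ± 5.4 in Sg-C3 and 53.1% ± 6.89 in Sg-Con, and the share of Pdk1 was 14.8% ± 2.27 in Sg-C3 and 30.1% ± 4.51 in Sg-Con. Neither share overlapped between the groups.

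**Figure D3:**
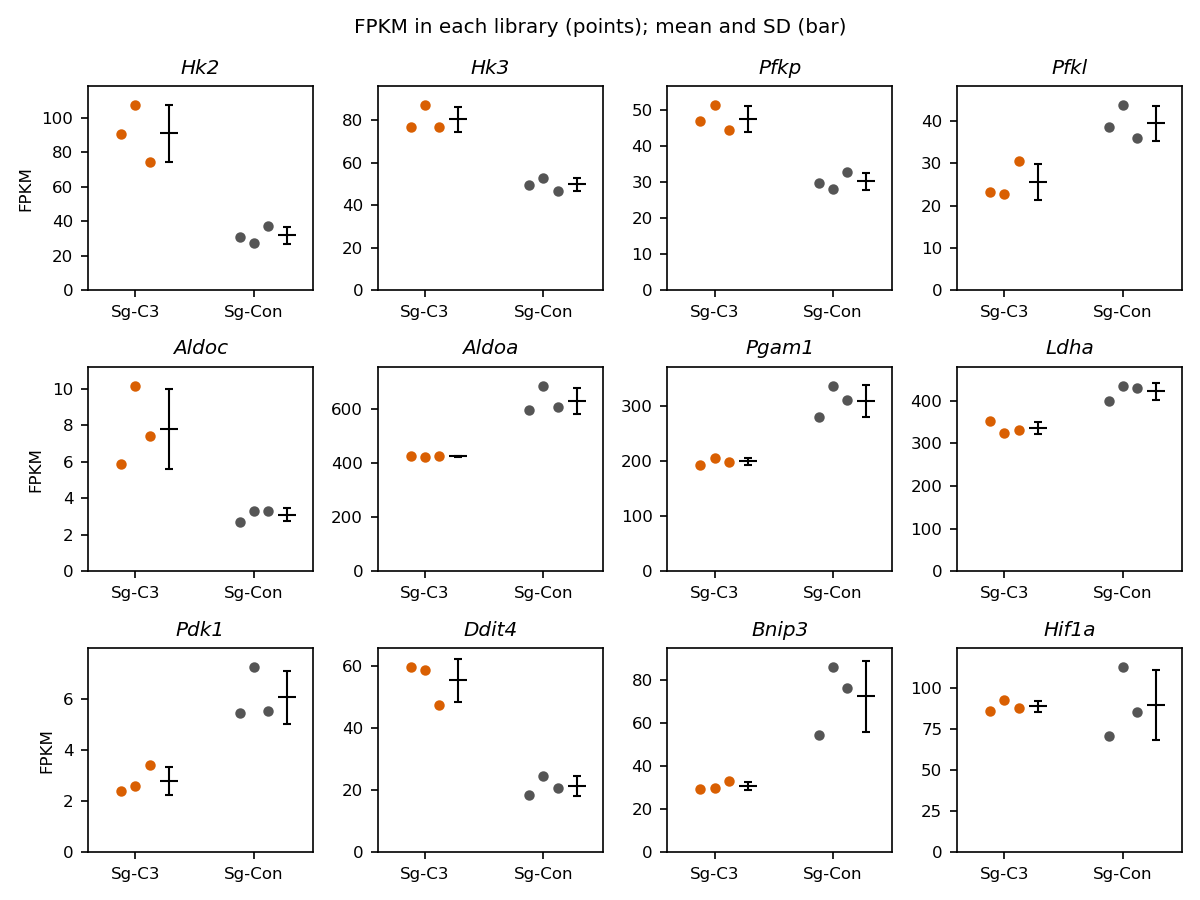
FPKM of 12 genes in each library as points, Sg-C3 on the left and Sg-Con on the right, with the mean and SD beside them; every axis starts at 0. The groups are apart in 11 of the 12 panels and overlap for Hif1a, whose Sg-Con values run from 70.8 to 113 FPKM. The 12 genes were picked for display, and the groups were apart for 25 of the 33 genes and 57.6% of all tested genes.

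The oxygen sensing genes did not move as a block. Hif1a, the gene of the regulated HIF-1 subunit, had 85.9, 92.3 and 87.8 FPKM in Sg-C3 libraries, against 70.8, 113 and 85.1 FPKM in Sg-Con libraries. Its Sg-C3 values all lay inside the Sg-Con range (log2 fold change 0.01, SE 0.16, limma adjusted p = 0.961). The gene is controlled largely at the protein level, which RNA does not measure. Egln1, the main prolyl hydroxylase that marks HIF-1α, had 14.7, 14.8 and 17.1 FPKM in Sg-C3 libraries, against 20.6, 26.5 and 23.2 FPKM in Sg-Con libraries, without overlap (log2 fold change -0.56, SE 0.12, limma adjusted p = 0.0103). Egln3, a hydroxylase that is itself a HIF target, had 3.8, 3.01 and 3.17 FPKM in Sg-C3 libraries, against 2.35, 5.42 and 3.06 FPKM in Sg-Con libraries, with overlap (log2 fold change -0.04, SE 0.23, limma adjusted p = 0.896). Egln2, the third hydroxylase and not on the list of 33, was higher, with 52.2, 49.9 and 43.9 FPKM in Sg-C3 libraries, against 25.2, 25.9 and 27.9 FPKM in Sg-Con libraries (log2 fold change 0.86, SE 0.10, limma adjusted p = 0.0019). Per length it was the most abundant of the 3 in every library except Sg-Con replicate 2, where Egln1 was.

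Both genes of mitochondrial removal and several other HIF targets were lower in Sg-C3. Bnip3, a mitochondrial protein that starts mitophagy, had 29.6, 29.6 and 33 FPKM in Sg-C3 libraries, against 54.3, 86.1 and 76.4 FPKM in Sg-Con libraries. The Sg-C3 libraries lay close together and below all Sg-Con libraries (log2 fold change -1.18, SE 0.17, limma adjusted p = 0.0031), a ratio of 0.425. Its relative Bnip3l, which removes mitochondria from maturing red cells, had 22.2, 20.3 and 21.6 FPKM in Sg-C3 libraries, against 26, 39.3 and 32.1 FPKM in Sg-Con libraries (log2 fold change -0.56, SE 0.15, limma adjusted p = 0.0205), without overlap. The call of Bnip3l was lost when Sg-C3 library 1 or 2 was removed (limma adjusted p = 0.0516 to 0.0718) and after median-ratio scaling (0.0766). Ankrd37, an ankyrin repeat gene known as a HIF-1 target, had 2.66, 2.46 and 3.16 FPKM in Sg-C3 libraries, against 4.86, 10.2 and 6.44 FPKM in Sg-Con libraries (log2 fold change -1.07, SE 0.23, limma adjusted p = 0.0103), a ratio of 0.385. Adm, the gene of the vasodilator adrenomedullin, was near the detection floor with 0.94, 0.62 and 0.68 FPKM in Sg-C3 libraries, against 2.72, 1.99 and 1.9 FPKM in Sg-Con libraries (log2 fold change -0.87, SE 0.14, limma adjusted p = 0.00471), and it was not tested when any Sg-Con library was left out. By ratio of mean FPKM (0.339) Adm was the lowest of the hypoxia genes, below Ankrd37 and Bnip3. Annotated transcripts on the opposite strand cover 22.3% of the exon bases of Bnip3, 22.7% of those of Ankrd37 and 22.5% of those of Higd1a, so their reads may be shared. P4ha1, a subunit of the enzyme that hydroxylates collagen, stood at the threshold with 31.5 ± 4.54 FPKM in Sg-C3 and 40.3 ± 2.54 FPKM in Sg-Con (log2 fold change -0.36, SE 0.12, limma adjusted p = 0.0498), and 11 of its 13 alternatives ended the call, with adjusted p of up to 0.278.

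Ddit4 and Ndrg1 went the other way. Ddit4, which restrains the growth kinase mTOR under stress, had 59.8, 58.6 and 47.5 FPKM in Sg-C3 libraries, against 18.3, 24.7 and 20.6 FPKM in Sg-Con libraries, a 2.61-fold difference without overlap (log2 fold change 1.34, SE 0.14, limma adjusted p = 0.00161). Ndrg1, a stress gene whose product is found in many cell types, had 402, 447 and 381 FPKM in Sg-C3 libraries, against 212, 277 and 336 FPKM in Sg-Con libraries, without overlap (log2 fold change 0.60, SE 0.17, limma adjusted p = 0.0255). The call of Ndrg1 was lost when Sg-C3 library 1 or 2 or Sg-Con library 2 was removed (limma adjusted p = 0.0559 to 0.0899). Ero1l, an oxidase of the endoplasmic reticulum, Mxi1, an antagonist of Myc, and Higd1a, a mitochondrial inner membrane protein, overlapped between the groups, with log2 fold changes of -0.05, -0.11 and -0.10 and limma adjusted p of 0.649, 0.681 and 0.533. The signs of these 3 and of Egln3 turned to positive after median-ratio scaling, where none was called.

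The promoters of Bnip3 and Ankrd37, the lowest of the hypoxia genes by log2 fold change, and of Ddit4, the highest, are shown in the same way, to set their cores side by side.
Bnip3, chr7:138909507-138909756, minus strand: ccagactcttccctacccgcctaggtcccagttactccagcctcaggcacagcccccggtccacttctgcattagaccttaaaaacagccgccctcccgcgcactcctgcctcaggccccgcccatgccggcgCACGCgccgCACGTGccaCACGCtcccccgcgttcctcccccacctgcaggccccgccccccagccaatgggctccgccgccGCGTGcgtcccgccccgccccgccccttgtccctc
Ankrd37, chr8:45999851-46000100, minus strand: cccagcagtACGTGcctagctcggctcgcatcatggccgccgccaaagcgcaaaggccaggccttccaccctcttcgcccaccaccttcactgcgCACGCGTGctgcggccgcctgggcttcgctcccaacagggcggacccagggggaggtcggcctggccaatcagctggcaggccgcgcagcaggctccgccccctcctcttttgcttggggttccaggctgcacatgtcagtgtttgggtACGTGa
Ddit4, chr10:59951771-59952020, minus strand: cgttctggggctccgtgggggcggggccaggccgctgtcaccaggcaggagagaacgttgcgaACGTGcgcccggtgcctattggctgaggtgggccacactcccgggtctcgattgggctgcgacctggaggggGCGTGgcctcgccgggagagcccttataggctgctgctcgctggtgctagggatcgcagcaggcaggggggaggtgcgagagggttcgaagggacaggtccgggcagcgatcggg
Bnip3 has 5 matches and Ankrd37 has 4, and Ddit4 has 2. The printed genes were picked and their counts do not stand for a direction. At the first start listed, Gpi1, Tpi1 and Aldoa, also called lower, held 0 matches, and Pfkp, called higher, held 3. Whether the number of cores differs with direction was not tested. Overlapping readings of both strands are counted once for each strand.

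Spread among Sg-Con libraries was shared by most of the genes. Sg-Con replicate 2 had the highest value of its group for 16 of the 20 glycolysis genes and 11 of the 13 hypoxia genes, beside 25.4% of all tested genes. It had the highest value of all 6 libraries for 22 of the 33 genes, beside 19% of all tested genes. The median coefficient of variation of the hypoxia genes was 12.2% in Sg-C3 and 20.6% in Sg-Con, and for the glycolysis genes it was 7.06% in Sg-C3 and 9.44% in Sg-Con. Over all tested genes it was 12.3% in Sg-C3 and 11.2% in Sg-Con. The coefficient of variation was larger in Sg-Con for 10 of the 20 glycolysis genes and 10 of the 13 hypoxia genes. This was so for 5047 of the 11198 tested genes. Egln3 had the widest spread in Sg-Con, with a coefficient of variation of 44.5%. Without Sg-Con replicate 2, 4 glycolysis genes were higher and 8 lower, and 1 hypoxia gene was higher and 4 lower. Over all tested genes, 999 were then higher and 2517 lower. Bnip3 and Ankrd37 then had log2 fold changes of -1.05 and -0.82 and were still called.

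**Figure D4:**
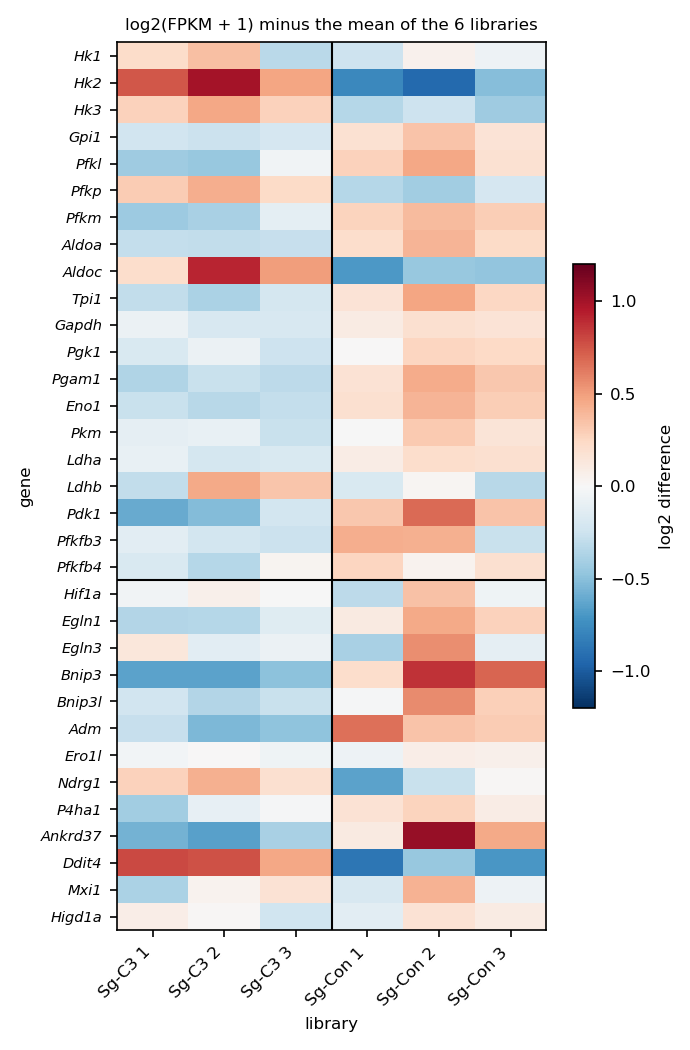
Difference of each gene's log2(FPKM + 1) from its mean over the 6 libraries, with genes in rows and libraries in columns, Sg-C3 to the left of the vertical line; red is above the mean and blue below, and colours are capped at the ends of the scale. The column of Sg-Con replicate 2 holds the highest value for 22 of the 33 genes.

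Genes of neighbouring pathways were read in the same test, in which 12.7% of all tested genes were higher and 31.7% lower. Among 10 transport genes of glucose, lactate and pyruvate, 1 was higher, 3 were lower and 6 were not called, with a median log2 fold change of 0.14. Slc2a1, the main glucose transporter gene GLUT1 of inflammatory macrophages and chosen after its values were seen, had 103, 145 and 136 FPKM in Sg-C3 libraries, against 88, 100.03 and 101 FPKM in Sg-Con libraries, with a log2 fold change of 0.39 that missed the threshold (limma adjusted p = 0.0547). The transporter gene Slc2a6 was higher (0.63), and Slc2a8 (-0.99), the monocarboxylate transporter gene Slc16a7 (-0.997) and Bsg (-0.31), a chaperone of lactate transporters, were lower. The call of Slc2a6 was lost when Sg-C3 library 1 or 2 or Sg-Con library 1 or 2 was removed (limma adjusted p = 0.0849 to 0.0962) and with title style as a covariate (0.0519). That of Bsg was lost when Sg-C3 library 2 or Sg-Con library 1 was removed (limma adjusted p = 0.06 to 0.0664) and after median-ratio scaling (0.17). After median-ratio scaling 3 transport genes were higher and 2 lower, beside 2088 and 2134 of the 11198 tested genes.

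Of 14 tested further glycolysis enzymes and regulators, 1 was higher and 6 were lower, beside 12.7% and 31.7% of all tested genes. Gpd2, which passes electrons from glycolysis to mitochondria, had 26.2, 36.1 and 26.4 FPKM in Sg-C3 libraries, against 11.9, 12.2 and 16.6 FPKM in Sg-Con libraries, a 2.18-fold difference without overlap (log2 fold change 1.07, SE 0.17, limma adjusted p = 0.00442). Eno2, the neuronal enolase gene, had 8.64, 9.88 and 10.7 FPKM in Sg-C3 libraries, against 14.3, 27.1 and 22.4 FPKM in Sg-Con libraries (log2 fold change -1.01, SE 0.22, limma adjusted p = 0.0106), and Galk1, the galactokinase gene, had a log2 fold change of -0.81. Minpp1, with -0.48, lost its call when Sg-C3 library 2 or 3 or Sg-Con library 1 or 2 was removed (limma adjusted p = 0.0624 to 0.114), after median-ratio scaling (0.101) or after quantile normalization (0.0997). The lower genes of that list numbered 2 when Sg-C3 library 2 was removed and 3 when Sg-Con library 1 was removed. Of 11 tested genes around pyruvate dehydrogenase 1 was higher and 7 lower, among them the complex subunit genes Pdha1 (-0.66) and Dlat (-0.61), with 2 when Sg-C3 library 2 or Sg-Con library 2 was removed and 3 when Sg-C3 library 1 or Sg-Con library 1 was removed and 4 when Sg-Con library 3 was removed. Pdha1 had 23.9, 23.1 and 25.5 FPKM in Sg-C3 libraries, against 35.2, 43.9 and 37.5 FPKM in Sg-Con libraries, without overlap.

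Pathways that branch from or follow glycolysis held lower genes and none called higher. Of all tested genes 31.7% were lower and 12.7% higher. In the pentose phosphate pathway, which makes NADPH and ribose, 6 of 10 tested genes were lower (median -0.48), among them H6pd (-0.92), Prps2 (-0.83) and Prps1 (-0.62). Of 13 glycogen genes 6 were lower (median -0.43), among them Pgm2l1 (-1.01), the glycogen phosphorylase gene Pygl (-0.93) and the glycogen synthase gene Gys1 (-0.71). Pygl lost its call when Sg-C3 library 1, 2 or 3 or Sg-Con library 3 was removed (limma adjusted p = 0.0636 to 0.0907), after median-ratio scaling (0.0779), after quantile normalization (0.0759) or with title style as a covariate (0.0534). Of 18 genes of the tricarboxylic acid cycle 15 were lower (median -0.39), with Fh1 (-0.75), Ogdh (-0.67) and Idh3a (-0.67) the lowest, but 7 after median-ratio scaling and 6 when Sg-C3 library 2 was removed. Fh1 was not called when Sg-C3 library 1 or 2 was removed (limma adjusted p = 0.0548 to 0.055). After median-ratio scaling or with Sg-C3 library 3 removed, 1 pentose phosphate gene was higher, and with Sg-C3 library 3 or Sg-Con library 3 removed, 1 glycogen gene was.

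Other HIF genes went both ways, as did all tested genes, of which 12.7% were higher and 31.7% lower. Of 13 tested HIF subunits and controllers 2 were higher and 3 lower. Siah2, a ubiquitin ligase that degrades prolyl hydroxylases, was higher beside Egln2, with 32.5, 26.8 and 29.8 FPKM in Sg-C3 libraries, against 14.8, 12.3 and 17.8 FPKM in Sg-Con libraries (log2 fold change 0.95, SE 0.14, limma adjusted p = 0.00367). Epas1, the gene of HIF-2α, was lower, with 2.09, 1.51 and 2.31 FPKM in Sg-C3 libraries, against 4.89, 7.91 and 3.23 FPKM in Sg-Con libraries (log2 fold change -1.04, SE 0.26, limma adjusted p = 0.0182), and lost its call when Sg-C3 library 1 or 2 was removed (limma adjusted p = 0.0504 to 0.0681). Tceb2, a subunit of the ligase that degrades HIF, was lower (-0.31) but not when Sg-C3 library 2 or Sg-Con library 1 or 3 was removed (limma adjusted p = 0.0724 to 0.0955), after median-ratio scaling (0.167) or with title style as a covariate (0.0526). Os9 was lower (-0.27) but not when Sg-C3 library 1 or 2 or Sg-Con library 1, 2 or 3 was removed (limma adjusted p = 0.0576 to 0.123), after median-ratio scaling (0.353), after quantile normalization (0.0705), with title style as a covariate (0.0751) or with no mean-variance trend (0.0528). The lower genes of the list numbered 0 when Sg-C3 library 2 was removed and 1 when Sg-C3 library 1 or Sg-Con library 1 or 3 was removed. Of 38 tested further HIF targets 3 were higher and 15 lower, with a median of -0.12, beside -0.16 over all tested genes. The higher ones were Nos2 (2.18), the inducible nitric oxide synthase gene, the uridine phosphorylase gene Upp1 (1.55) and the transcription factor gene Bhlhe40 (0.72), which lost its call when Sg-C3 library 1 or 2 was removed (limma adjusted p = 0.0592 to 0.0611). Nos2 had 41.9, 27 and 29 FPKM in Sg-C3 libraries, against 10.6, 6.71 and 3.3 FPKM in Sg-Con libraries, without overlap. The lowest were the arginase gene Arg1 (-3.64), Hmox1 (-1.55), which degrades heme, and Pdgfb (-1.40), a growth factor gene. Arg1 had 29.4, 5.86 and 41 FPKM in Sg-C3 libraries, against 126, 649.8 and 205 FPKM in Sg-Con libraries, without overlap. Hmox1 had 181, 172 and 172 FPKM in Sg-C3 libraries, against 475, 324 and 886 FPKM in Sg-Con libraries, also without overlap. Vegfa, the angiogenic factor gene and a standard HIF target, named after its values were seen, had 60.1, 109 and 142 FPKM in Sg-C3 libraries, against 78.1, 95.3 and 63.8 FPKM in Sg-Con libraries, with overlap (log2 fold change 0.32, SE 0.30, limma adjusted p = 0.416).

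**Figure D5:**
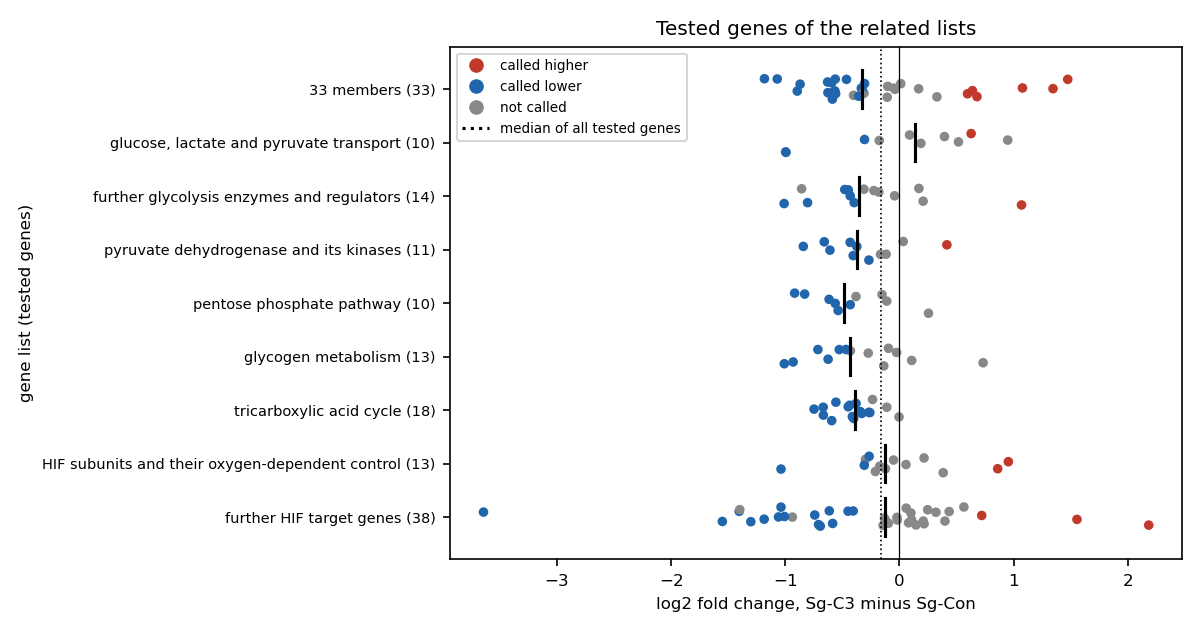
Log2 fold change of each tested gene of the 33 and of 8 related lists, as points coloured by the call, with the list's median as a black bar and the median of all tested genes dotted. The median is 0.14 for transport genes and -0.48 for the pentose phosphate pathway.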

How the data were processed

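RNA of 6 sorted macrophage samples was sequenced, 3 from Sg-C3 and 3 from Sg-Con tumours. The deposited table gives FPKM per gene, made by the authors. Bowtie 0.12.2 and build mm8 are named in the submitters' processing notes, while no source used here gives the program behind the FPKM. The labels' protocols name both a TruSeq and an MGIEasy library kit, without saying whether reads were assigned by strand. Columns were tied to samples by title.

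From these values log2(FPKM + 1) was tested with limma 3.58.1 in R 4.3.3, as lmFit and eBayes with a mean-variance trend, over the 11198 genes with at least 1 FPKM in 3 or more of 6 libraries. P-values were adjusted by Benjamini-Hochberg over all of them. No covariate was used. FPKM carries no read counts, and depth was estimated from the spacing of low values of short genes, where 88% to 94.1% of values were whole reads within 0.1 read. The depths, and an offset of 36 bases taken off each gene length, were chosen to make this share largest. The share is therefore no check on the estimate. The number of libraries limits the precision.

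The 33 genes and all other lists were chosen with earlier results of these data known. All 33 are named. Values in every library were given for genes called with a log2 fold change of at least 0.8 in size, for Hif1a, Egln1, Gapdh, Pkm and Ldha, for isoenzymes of a described step, and for some others chosen after their values were seen. In the other pathway lists the called genes with the 3 highest and 3 lowest fold changes were named. Marker lists were read from the test with no filter, since many markers were low, and the result of 1 epithelial marker is not reported here. Replicates are numbered in accession order. The titles of replicate 3 of both groups have another style (SGC3_, CON_) than those of replicates 1 and 2 (C3KO_, TAM_). The labels do not say what the style marks, and it may mark a batch.

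Promoters are RefSeq sequences of GRCm38.p6 and exon overlaps come from GENCODE vM21. Neither build is mm8, and no position was carried over to the deposited values. The alternatives were a pseudocount of 0.1, no filter, a mean of at least 5 FPKM, median-ratio scaling, quantile normalization, the style of the sample title as a covariate, no mean-variance trend and leaving out each library.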

Additional observations from a re-analysis of the deposited data

How the results depend on the processing

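Of the 23 called genes of the list, 17 stayed called under every alternative in which they were tested, and none of the 23 changed direction. Of the 10 others, 5 were called under none. Calls that were lost or gained are given with each gene.

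Over all genes, 2134 were lower after median-ratio scaling, against 3554 in the test as reported. With 1 library left out, between 810 and 1423 were higher and between 1970 and 3639 lower. The lowest of these counts came without Sg-C3 replicate 2, and 879 were higher without Sg-C3 replicate 1. The lower share of calls was 71.5%, and it was 50.5% after median-ratio scaling and 56.9% after quantile normalization. Leaving out 1 library gave 1 to 2 hypoxia genes called higher, 1 without Sg-C3 replicate 1, Sg-C3 replicate 2 or Sg-Con replicate 2, since Ndrg1 was then not called.

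Only genes that were not called changed sign. After median-ratio scaling the log2 fold change was 0.085 for Egln3, 0.11 for Ero1l, 0.055 for Mxi1 and 0.051 for Higd1a. After quantile normalization it was 0.13 for Egln3, 0.014 for Ero1l and 0.037 for Higd1a. With 1 library left out it lay between -0.14 and 0.19 for Hif1a, between -0.24 and 0.23 for Egln3 and between -0.23 and 0.074 for Mxi1. The cause was not tested.

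No paired analysis was possible because the labels give no replicate numbers that link a Sg-C3 library to a Sg-Con library; only the title style joins replicate 3 of both groups. With that style as a covariate 4 glycolysis genes were higher and 9 lower, and 2 hypoxia genes were higher and 5 lower. Over all tested genes, 1202 were then higher and 2907 lower. Genes under about 1 FPKM, such as Adm in Sg-C3, rest on few reads.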
